A study of Homo sapiens with 12 samples.

Results

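The mRNAs of 50 ribosome biogenesis and nucleolar proteins were followed in Ewing sarcoma cells after transcription was stopped. The set is defined by gene symbol: it holds RNA polymerase I factors, nucleolar scaffold proteins, small nucleolar ribonucleoprotein (snoRNP) subunits and assembly factors of both ribosomal subunits. All 50 symbols were among the 26334 genes of the count table, and all 50 passed the filter of a mean of at least 10 counts per library that left 12032 genes. The samples were shA673-1c cells, a derivative of the Ewing sarcoma line A673 kept under blasticidin and zeocin selection, which all groups share. They were treated with 5 µM actinomycin D (ActD) for 0, 1, 2 or 4 h, with 3 biological replicates per time and 12 poly(A)-selected libraries in all. All 12 libraries carry the label CTL. The labels do not explain the sh of the cell name, nor state whether an shRNA was present or induced. There was no group without ActD beyond the 0 h samples, so time in the drug and time in culture cannot be told apart. The question put to these genes was how fast each mRNA was lost once its synthesis stopped.

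Ribosomes are assembled in the nucleolus, where RNA polymerase I transcribes the precursor ribosomal RNA. C/D snoRNPs guide 2′-O-methylation and H/ACA snoRNPs guide pseudouridylation of that precursor, the small subunit (SSU) processome and late 40S factors build the small subunit, and the PeBoW complex and many other factors build the large one. ActD intercalates into DNA. At low doses it mainly stops RNA polymerase I, and at higher doses it stops RNA polymerase II too, so the drug that stalls the nucleolus also leaves the mRNAs of its proteins to decay without replacement.

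Counts were scaled with TMM factors (trimmed mean of M values, which assumes that most genes keep their level) and are given as CPM, the count of a gene relative to its library total. Total counts ranged from 9147018 to 11194705 per library. A straight line in time gave each gene 1 slope in log2 change per hour, tested with edgeR and adjusted over all tested genes. A slope is therefore relative to the bulk of mRNAs: a gene that "rose" made up a larger part of the remaining RNA, and fewer transcripts per cell and fewer cells cannot be told apart in bulk RNA. MYC fell from 135 to 8.37 CPM by 4 h, and JUN and IER2 also fell. Of 10 genes named as Ewing sarcoma markers, 9 were counted in every library, while CD99, a surface protein used to diagnose this tumor, was listed at 0 in all 12. Whether the counting could detect CD99, which has copies on both sex chromosomes, is not given in the sources used here, so its 0 is not read as absence. The leukocyte gene PTPRC had at most 3 counts per library, the epithelial gene EPCAM and the endothelial gene PECAM1 at most 6, and the endothelial gene CDH5 at most 1. The epithelial keratin gene KRT18 had 2104 to 3862.

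A sequence feature shared by many of these genes was the E-box CACGTG, the site bound by MYC and related factors, which reads the same on both strands. RefSeq promoters of 300 bases (250 before and 50 after the start) were matched for 42 of the 50 genes, and 17 (40.5%) held the letters CACGTG, against 951 of 9155 tested genes (10.4%) and 2548 of 35116 promoters in the table (7.26%). The motif was found in 7 of 19 genes whose mRNA fell (36.8%), 3 of 5 whose mRNA rose (60%) and 7 of 18 with neither call (38.9%). Stretches of 5 promoters are shown because they carry the same capitals close to the start while their mRNAs fell, rose or did neither (GRCh38.p14, given in the direction of transcription, with the E-box in capitals). They are WDR43 (chr2:28894610-28894696, plus strand) and NAT10 (chr11:34105554-34105658, plus), which fell, FBL (chr19:39846350-39846433, minus), which rose, and NOP14 (chr4:2963377-2963451, minus) and UTP20 (chr12:101280035-101280134, plus) with neither call.
WDR43: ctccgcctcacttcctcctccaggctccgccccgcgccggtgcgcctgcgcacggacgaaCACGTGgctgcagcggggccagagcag
NAT10: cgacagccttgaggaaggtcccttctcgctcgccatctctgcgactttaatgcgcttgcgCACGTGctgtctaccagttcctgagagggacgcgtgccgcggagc
FBL: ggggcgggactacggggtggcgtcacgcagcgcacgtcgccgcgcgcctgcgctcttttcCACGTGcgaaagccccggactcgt
NOP14: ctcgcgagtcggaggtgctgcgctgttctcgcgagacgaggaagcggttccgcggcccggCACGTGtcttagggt
UTP20: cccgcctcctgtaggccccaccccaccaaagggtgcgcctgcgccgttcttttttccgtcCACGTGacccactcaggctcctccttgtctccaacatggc
Counting the start as base 1, the E-box began at base 4 in WDR43, 7 in FBL and 16 in NOP14, and at 10 bases before the start in UTP20 and 15 in NAT10. A match of letters says nothing about whether a factor was bound there.

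The 3′ UTR pentamer ATTTA is the core of AU-rich elements, which are known to speed the decay of many short-lived mRNAs. Searched on the transcript strand of the GENCODE version 44 canonical transcripts, with overlapping matches counted, it was in the 3′ UTRs of 27 of the 50 genes. The first site of 6 genes is shown, in the mRNA direction with that site in capitals, because the same 5 letters stood in mRNAs that were lost at very different rates. The WDR43 stretch also holds the next site of that gene, left in lower case. With TMM scaling WDR43, UTP15 and NOP16 fell, and WDR12, NCL and GNL3L did not. When libraries were scaled to GAPDH and ACTB counts all 6 fell. Their slopes were then -0.725, -0.462 and -0.494, and -0.105, -0.115 and -0.086 log2 per hour.
WDR43: aaaatttttttaATTTAgtacatttaatt
UTP15: tctctgatttgtATTTAgattcctccccc
NOP16: tcagaggctccaATTTAtattcatctggg
WDR12: ttcttattttgtATTTAtaataagatagg
NCL: tgtaagttttgaATTTAtattgtttcatc
GNL3L: aaatacaaaaaaATTTAgccgtgcttagt
The number of such sites was 6 in WDR43, 14 in UTP15 and 1 in NOP16, and 10 in WDR12, 2 in NCL and 22 in GNL3L. IMP3 and MPHOSPH10, which were lost about as fast as WDR43, had 0. Whether the sites bear on the loss of these mRNAs was not tested. Of the 27 genes with the pentamer 14 fell (51.9%), and of the 23 without it 8 fell (34.8%). Over all tested genes these shares were 37.4% with the pentamer and 18.6% without it.

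Over 0 to 4 h, 22 of the 50 mRNAs fell and 8 rose at an adjusted p below 0.05 (edgeR quasi-likelihood test, Benjamini-Hochberg). This compares with 32.1% of all tested genes falling and 30.7% rising, against 44% and 16% of the 50. With the replicate number as a block, 27 fell and 14 rose, where 34.8% of all tested genes fell and 36.2% rose. In log2 per hour, the 50 genes had a median slope of -0.025 and all tested genes one of 0.009. In the 3 replicates taken singly, the median was -0.030, -0.026 and -0.041. At 4 h, 22 mRNAs were lower than at 0 h and 8 were higher in the same test with time as groups, against 31.6% and 28.7% of all tested genes. With the block 28 were lower and 13 higher, against 36% and 36.8%. The same 22 that fell had all 3 libraries at 4 h below all 3 at 0 h (33.0% of all tested genes), and 8 had all 3 above (30.4%). The latter 8 were not quite those that rose: NOC4L, with neither call, was among them, and EBNA1BP2, which rose, was not. With TMM scaling, 4 mRNAs were left at below 25% of their 0 h level and 8 at below 50%, while 24 stayed within 20% of it. Shares over all tested genes were not counted for these cut-offs, which also depend on the scaling. The median log2 change at 4 h was -0.096 for the 50 genes and 0.028 for all tested genes. With scaling to GAPDH and ACTB these medians were -0.646 and -0.52.

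**Figure D1:**
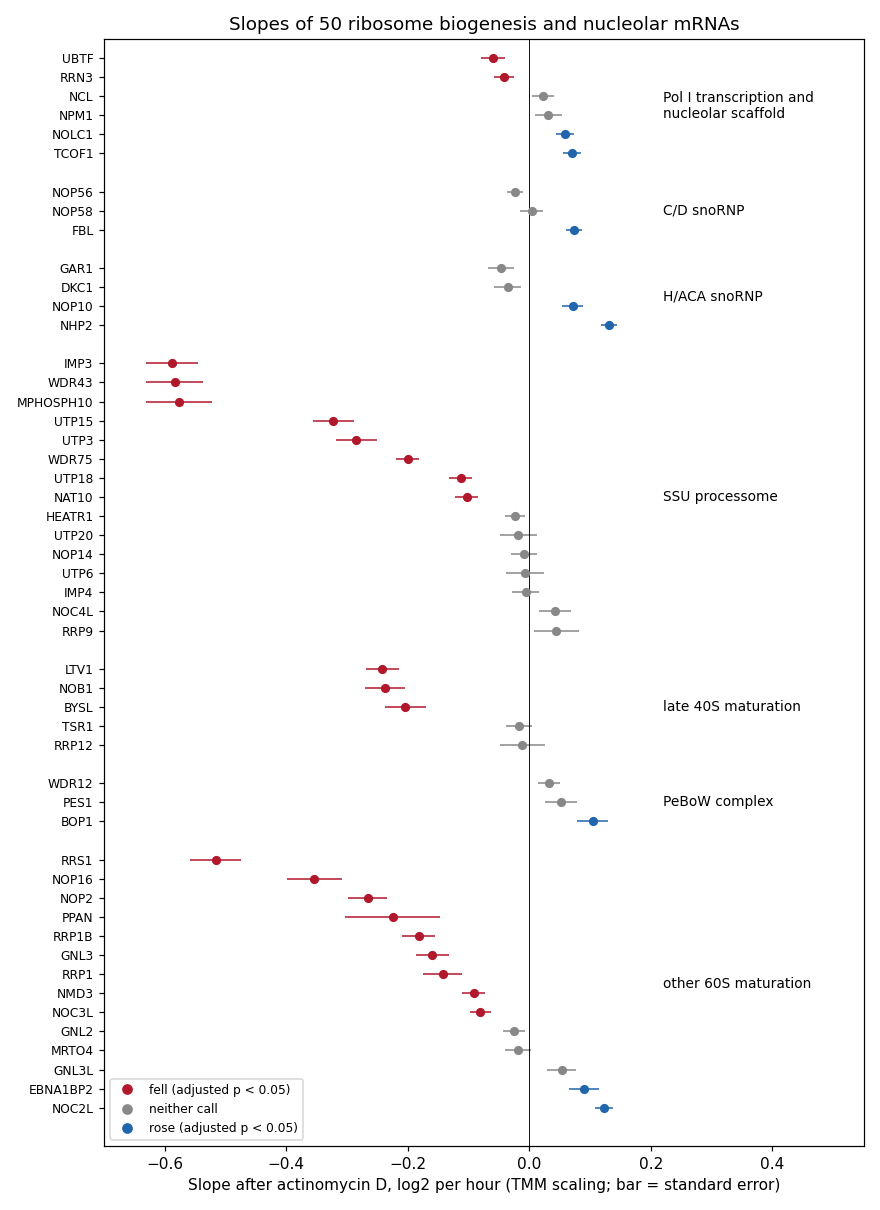
Slope of each of the 50 mRNAs after ActD (x axis, log2 change per hour with TMM scaling, bars are standard errors of the edgeR fit over 12 libraries), grouped by the role of the protein and colored by call. The 22 falling genes lie between -0.59 and -0.042 in this fit, which has no replicate block. They are 8 of 15 SSU processome, 3 of 5 late 40S, 9 of 14 other 60S and 2 of 6 polymerase I and scaffold genes. Of 3 C/D, 4 H/ACA and 3 PeBoW genes 0 fell, where 32.1% of all tested genes did. With scaling to GAPDH and ACTB 46 of the 50 fell, among them 3, 3 and 2 of these, against 64.2% of all tested genes.

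The SSU processome, the large particle that folds and cleaves the precursor of the small subunit, held the steepest losses. Of its 15 genes 8 fell and 0 rose, with a median slope of -0.10. With the replicate block 9 fell and 1 rose, and with scaling to GAPDH and ACTB 15 fell. For this and the groups below, the shares over all tested genes were 32.1% falling and 30.7% rising without the block, and 34.8% and 36.2% with it. With GAPDH and ACTB they were 64.2% and 0.931%, and 46 of the 50 genes fell. IMP3, a subunit of the MPP10 complex of this particle (chr15:75639085-75648706, minus strand, GRCh38, with a canonical transcript of 1 exon), had the lowest slope of all 50. It measured 62.7, 66.6 and 55.0 CPM in replicates 1 to 3 at 0 h, 53.5, 50.9 and 44.7 at 1 h, 35.2, 37.2 and 33.5 at 2 h and 13.7, 12 and 9.53 at 4 h. The 4 times did not overlap, and each was lower than the one before. The slope was -0.59 (standard error 0.043, adjusted p = 1.07e-08, edgeR), with 19.1% left at 4 h. WDR43, a subunit of the UTP-A complex that binds the precursor RNA early (chr2:28894667-28948219, plus strand), measured 197, 215 and 178 CPM at 0 h, 187, 197 and 153 at 1 h, 110, 130 and 102 at 2 h and 44.2, 45.9 and 33.2 at 4 h. Its 0 h and 1 h libraries overlapped, and the later times lay below both and apart from each other. The slope of WDR43 was -0.58 (standard error 0.047, adjusted p = 3.2e-08, edgeR), with 20.9% left at 4 h.

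MPHOSPH10, the scaffold that holds IMP3 and IMP4 in the MPP10 complex (chr2:71130310-71150101, plus strand), measured 76.1, 93.3 and 86.4 CPM at 0 h, 75.2, 78.7 and 75.3 at 1 h, 55.6, 54.2 and 50.5 at 2 h and 20.7, 19.9 and 11 at 4 h. All libraries at 2 h were below all earlier ones and those at 4 h lower again, with replicate 3 the lowest. Its slope was -0.58 (standard error 0.055, adjusted p = 1.81e-07, edgeR), with 20.2% left. On the other side of the group, RRP9, a U3 snoRNP protein, measured 36.5, 39.4 and 31.7 CPM at 0 h, 41.5, 43.5 and 31.3 at 1 h, 41.3, 44.5 and 31.6 at 2 h and 44.4, 46.7 and 31.7 at 4 h. Replicate 3 hardly moved while replicates 1 and 2 ended higher, and the groups overlapped. The slope of 0.044 was not past the threshold (standard error 0.037, adjusted p = 0.316, edgeR), but was with the replicate block (adjusted p = 0.0332). The other 5 that fell were UTP15 (-0.32), UTP3 (-0.28), WDR75 (-0.20), UTP18 (-0.11) and the RNA acetyltransferase NAT10 (-0.10). Those with neither call ran from HEATR1 at -0.024 to RRP9, and of these HEATR1 fell with the block (adjusted p = 0.0478, edgeR).

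Some subunits of one complex were lost at different rates, and others at like rates. These differences were formed from the ratio of the counts of 2 genes within each library, so they do not depend on the scaling, and apart from RRP1 with RRP1B and GNL3 with GNL3L the pairs were picked after their values were seen. They are given as values, without a test, since an exact two-sided test that flips the signs of 3 within-replicate differences cannot go below p = 0.25. IMP3 was lost faster than IMP4, its partner in the MPP10 complex, with differences in slope of -0.59, -0.60 and -0.62 log2 per hour in replicates 1 to 3, and the ratio of their CPM went from 0.853 to 0.168. For MPHOSPH10 and IMP4 the mean difference was -0.61 ± 0.12 (SD, n = 3) log2 per hour, and the ratio went from 1.18 to 0.245. Between IMP3 and MPHOSPH10 the replicates gave -0.073, -0.053 and 0.12, in both directions. For NOP56 and NOP58 of the C/D snoRNP they gave -0.054, -0.003 and -0.027, and the ratio went from 1.56 to 1.48. IMP4 itself measured 69.9, 77 and 69 CPM at 0 h, 69.4, 71.8 and 66.8 at 1 h, 81.9, 79.3 and 64.9 at 2 h and 73.7, 70.2 and 64.7 at 4 h. Its groups overlapped and 96.6% was left at 4 h (slope -0.006, adjusted p = 0.819, edgeR). HEATR1, the largest UTP-A subunit, measured 277, 247 and 250 CPM at 0 h, 274, 267 and 256 at 1 h, 261, 267 and 239 at 2 h and 256, 249 and 227 at 4 h. These values overlapped too, with the lowest in replicate 3 at 4 h. The ratio of WDR43 to HEATR1 went from 0.765 to 0.168, a slope difference of -0.57 ± 0.025, whereas UTP15 differed from HEATR1 by -0.31 ± 0.047 and WDR75 by -0.18 ± 0.0098. Among the UTP-A subunits listed here, the order was therefore WDR43, UTP15, WDR75 and HEATR1 in all 3 replicates.

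**Figure D2:**
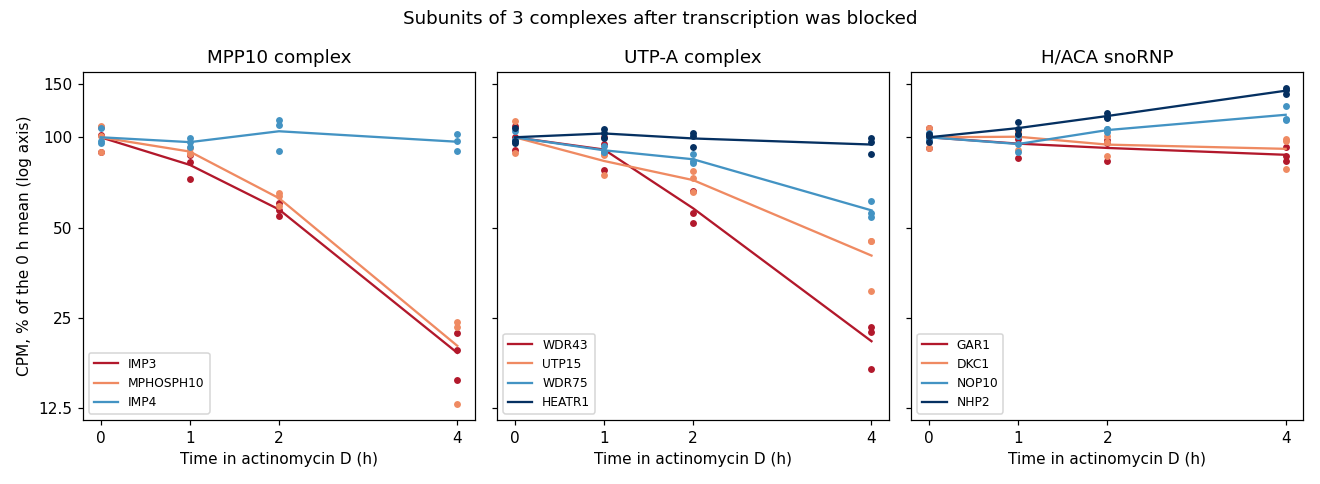
CPM as percent of the 0 h mean (y axis, log scale, TMM scaling) against hours in ActD (x axis) for subunits of 3 complexes. Points are the 3 replicates and lines join the mean at each time, and IMP3 and MPHOSPH10 (19.1% and 20.2% left at 4 h) part from IMP4 (96.6%), as WDR43 (20.9%) parts from HEATR1, while the 4 H/ACA subunits spread much less.

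Late 40S factors take the small subunit through its last steps in the nucleus and cytoplasm. Of these 5 genes 3 fell and 0 rose, with a median slope of -0.20. With the replicate block 3 fell and 0 rose too. With scaling to GAPDH and ACTB 5 fell, where 64.2% of all tested genes fell. LTV1, an export and maturation factor, measured 95.6, 107 and 92.9 CPM at 0 h, 95.7, 102 and 93.9 at 1 h, 82.4, 89.2 and 78.4 at 2 h and 50.4, 56.0 and 48.3 at 4 h. The 1 h libraries lay within the 0 h range, and the 2 h and 4 h libraries fell below it. Its slope was -0.24 (standard error 0.027, adjusted p = 8.22e-07, edgeR). NOB1, the nuclease that makes the final cut of 18S ribosomal RNA, fell nearly as fast (-0.24), as did BYSL (-0.20). The export factor RRP12 measured 134, 123 and 100 CPM at 0 h, 139, 142 and 97.3 at 1 h, 140, 132 and 107 at 2 h and 134, 123 and 92.9 at 4 h. Replicate 3 was the lowest at every time and the groups overlapped, and its slope was -0.012 (standard error 0.037, adjusted p = 0.803, edgeR).

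Of the 14 other 60S genes 9 fell and 2 rose, with a median of -0.12. With the replicate block 10 fell, GNL2 among them (slope -0.026, adjusted p = 0.0403, or 0.229 without the block, edgeR), and 3 rose. With scaling to GAPDH and ACTB 12 fell and 0 rose, where 64.2% and 0.931% of all tested genes did. RRS1, which brings the 5S RNA particle into the large subunit and has a canonical transcript of 1 exon, measured 49.3, 49.3 and 41.9 CPM at 0 h, 41.1, 44.2 and 34.8 at 1 h, 31.3, 30.0 and 21.9 at 2 h and 12.6, 11.3 and 9.97 at 4 h. Only its 0 h and 1 h libraries overlapped. The slope was -0.52 (standard error 0.042, adjusted p = 3.57e-08, edgeR), with 24.1% left. NOP16 (chr5:176383946-176388927, minus strand) measured 65.0, 68.2 and 52.0 CPM at 0 h, 53.5, 65.4 and 46.5 at 1 h, 44.2, 53.4 and 40.2 at 2 h and 28.0, 24.0 and 17.6 at 4 h. Its first 3 times overlapped and the 4 h libraries lay below all of them, and its slope was -0.35 (standard error 0.045, adjusted p = 3.63e-06, edgeR), leaving 37.6%. The rRNA methyltransferase NOP2 followed at -0.27, then PPAN at -0.22, NMD3 (export adaptor of the large subunit) at -0.092 and NOC3L at -0.081. PPAN had only 22.25 counts on average, and its call was lost without replicate 1 (adjusted p = 0.213) or replicate 2 (adjusted p = 0.078, both edgeR).

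NOC2L and EBNA1BP2 were the 60S factors that rose. NOC2L, which forms pairs with NOC3L on pre-60S particles, measured 117, 111 and 114 CPM at 0 h, 129, 124 and 121 at 1 h, 147, 142 and 127 at 2 h and 169, 158 and 155 at 4 h. The 0 h libraries lay below all later ones and the 4 h libraries above all earlier ones, while 1 h and 2 h overlapped, and the slope was 0.12 (standard error 0.015, adjusted p = 1.81e-06, edgeR). EBNA1BP2 measured 234, 261 and 217 CPM at 0 h, 222, 258 and 221 at 1 h, 276, 291 and 245 at 2 h and 302, 333 and 256 at 4 h. The lowest 4 h library lay below the highest at 0 h, though each replicate ended higher than it began. Its slope was 0.090 (standard error 0.024, adjusted p = 0.00352, edgeR).

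Among paralogs, RRP1 and RRP1B, homologs of a yeast pre-60S factor, both fell. RRP1 measured 79.6, 70.7 and 65.5 CPM at 0 h, 73.7, 73.3 and 59.5 at 1 h, 70.9, 68.3 and 64.4 at 2 h and 57.0, 49.2 and 38.6 at 4 h. RRP1B measured 185, 192 and 167 CPM at 0 h, 191, 203 and 166 at 1 h, 163, 162 and 148 at 2 h and 115, 128 and 97.7 at 4 h. The 4 h libraries lay below all earlier ones for both, and those of RRP1B were below the 0 h range already at 2 h. Their slopes were -0.14 (standard error 0.032, adjusted p = 0.000998) and -0.18 (standard error 0.027, adjusted p = 2.08e-05, both edgeR), a difference within replicates of 0.036 ± 0.027 (SD, n = 3) log2 per hour.

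GNL3 (nucleostemin) and its paralog GNL3L are nucleolar GTPases, and they parted. GNL3 measured 122, 139 and 115 CPM at 0 h, 118, 127 and 110 at 1 h, 109, 125 and 99.5 at 2 h and 84.0, 89.6 and 68.4 at 4 h. GNL3L measured 108, 92.4 and 91.0 CPM at 0 h, 117, 107 and 98.3 at 1 h, 118, 109 and 99.6 at 2 h and 124, 121 and 98.2 at 4 h. GNL3 was lower at 4 h than at 0 h without overlap, whereas the GNL3L groups overlapped. GNL3 fell at -0.16 (standard error 0.027, adjusted p = 7.36e-05, edgeR). The slope of GNL3L was 0.053 (standard error 0.024, adjusted p = 0.0614, edgeR, or 0.00223 with the replicate block). Within replicates they differed by -0.18, -0.24 and -0.22 log2 per hour, and the ratio of GNL3 to GNL3L went from 1.30 to 0.704.

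PeBoW joins PES1, BOP1 and WDR12 for processing of the precursor of the large-subunit RNAs. Of its 3 genes 0 fell and 1 rose, or 3 rose with the replicate block, where 36.2% of all tested genes rose. With scaling to GAPDH and ACTB 2 fell and 0 rose, where 64.2% of all tested genes fell. BOP1 measured 106, 97.0 and 87.9 CPM at 0 h, 109, 112 and 96.5 at 1 h, 133, 115 and 94.1 at 2 h and 136, 135 and 119 at 4 h. The 4 h libraries were all above the 0 h ones, and its slope was 0.10 (standard error 0.025, adjusted p = 0.00149, edgeR). WDR12 measured 99.4, 112 and 98.2 CPM at 0 h, 98.2, 100 and 92.4 at 1 h, 108, 114 and 104 at 2 h and 106, 118 and 104 at 4 h. These groups overlapped, and the slope was 0.032 (standard error 0.018, adjusted p = 0.142, edgeR, or 0.0486 with the block).

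With TMM scaling and no block neither snoRNP core held an mRNA that fell, whereas with the replicate block 1 C/D and 2 H/ACA genes did, and with scaling to GAPDH and ACTB 3 of 3 C/D and 3 of 4 H/ACA genes did. Of all tested genes 34.8% fell with the block and 64.2% with scaling to GAPDH and ACTB. In the C/D snoRNP 1 of 3 genes rose. FBL (fibrillarin, the methyltransferase of the C/D particle, chr19:39834458-39846379, minus strand) measured 258, 266 and 253 CPM at 0 h, 256, 282 and 270 at 1 h, 286, 304 and 301 at 2 h and 322, 319 and 306 at 4 h. From 2 h on its libraries were above all at 0 h, and its slope was 0.074 (standard error 0.013, adjusted p = 0.000103, edgeR). NOP56, its partner, measured 352, 354 and 333 CPM at 0 h, 359, 349 and 340 at 1 h, 332, 349 and 325 at 2 h and 330, 343 and 306 at 4 h. The NOP56 groups overlapped, and its slope was -0.024 (standard error 0.013, adjusted p = 0.12, edgeR, or 0.019 with the block).

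In the H/ACA snoRNP 2 of 4 genes rose, NHP2 and NOP10. NHP2 (chr5:178149463-178153894, minus strand) had the highest slope of the 50 and measured 99.9, 102 and 95.4 CPM at 0 h, 102, 106 and 111 at 1 h, 115, 119 and 116 at 2 h and 138, 145 and 142 at 4 h. The 2 h libraries were above all earlier ones and the 4 h libraries above those, and its slope was 0.13 (standard error 0.013, adjusted p = 1.96e-07, edgeR). GAR1 measured 64.1, 68.0 and 58.6 CPM at 0 h, 62.5, 65.0 and 54.1 at 1 h, 60.6, 62.3 and 52.8 at 2 h and 55.0, 58.8 and 52.9 at 4 h. The 0 h and 4 h ranges of GAR1 touched, and its slope of -0.047 (standard error 0.021) had an adjusted p of 0.0555, or 0.00334 with the block (edgeR). DKC1, the pseudouridine synthase mutated in dyskeratosis congenita, had a slope of -0.036 (adjusted p = 0.159, edgeR, or 0.00347 with the block). The ratio of NHP2 to GAR1 went from 1.56 to 2.56, and their slopes differed by 0.18 ± 0.0081 (SD, n = 3) log2 per hour.

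Among 6 genes of RNA polymerase I transcription and the nucleolar scaffold, 2 fell and 2 rose, or 2 fell and 4 rose with the replicate block, or 6 fell with scaling to GAPDH and ACTB. Under that scaling 64.2% of all tested genes fell. UBTF (UBF, which keeps ribosomal DNA open) measured 150, 163 and 149 CPM at 0 h, 154, 168 and 141 at 1 h, 152, 158 and 140 at 2 h and 127, 145 and 123 at 4 h. The 4 h libraries were all below the 0 h ones, by a small margin. Its slope was -0.060 (standard error 0.019, adjusted p = 0.0122, edgeR), and without replicate 1 the call was lost (adjusted p = 0.0717). The initiation factor RRN3 also fell, at -0.042 (adjusted p = 0.0318, edgeR), a call lost without replicate 1 (0.135), without replicate 2 (0.133) and without a count filter (0.054). Its pseudogenes RRN3P1 and RRN3P3 had at most 17 and 36 counts per library, and how reads were divided among these copies is not known.

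TCOF1 (treacle, a UBF partner mutated in Treacher Collins syndrome) measured 235, 229 and 216 CPM at 0 h, 243, 245 and 230 at 1 h, 267, 253 and 238 at 2 h and 295, 276 and 256 at 4 h. Every 2 h and 4 h library was above every 0 h library, and the slope was 0.070 (standard error 0.015, adjusted p = 0.000533, edgeR). NOLC1, a treacle-related chaperone of snoRNPs, rose at 0.059 (adjusted p = 0.00311, edgeR). NCL (nucleolin) and NPM1 (nucleophosmin), abundant RNA-binding proteins of the nucleolus, had the highest counts of the 50. NCL measured 2030, 2260 and 1960 CPM at 0 h, 2060, 2260 and 1980 at 1 h, 2100, 2340 and 2080 at 2 h and 2180, 2410 and 2040 at 4 h. NPM1 measured 1460, 1800 and 1580 CPM at 0 h, 1470, 1710 and 1510 at 1 h, 1550, 1820 and 1630 at 2 h and 1590, 1960 and 1640 at 4 h. In both, replicate 2 was the highest at every time and the groups overlapped. The slope was 0.023 for NCL (adjusted p = 0.273) and 0.031 for NPM1 (adjusted p = 0.233), or adjusted p = 0.00864 and 0.00494 with the block (edgeR).

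Few changes were called before 2 h. At 1 h 0 of the 50 genes were lower and 0 higher than at 0 h by edgeR, where 2.24% and 0.349% of all tested genes were. DESeq2 also called 0 lower and 0 higher. At an unadjusted p below 0.05 (edgeR), 3 were lower and 0 higher. For DESeq2 and for unadjusted p, shares over all tested genes were not counted. With the replicate block 7 were lower (IMP3, UTP3, UTP15, RRS1, UTP18, WDR75 and WDR43) and 2 higher (NOC2L and GNL3L), where 10.5% and 6.18% of all tested genes were. At 2 h 8 genes were lower, against 19.4% of all tested genes, and 3 were higher, against 10.8%. Those lower were IMP3, WDR43, MPHOSPH10, UTP15, UTP3 and WDR75 of the SSU processome, LTV1 and RRS1, and those higher were FBL, NHP2 and NOC2L. With the block, 17 were lower and 10 higher at 2 h, against 26.5% and 23.9% of all tested genes, and with scaling to GAPDH and ACTB 30 were lower and 0 higher, against 34.5% and 0.0914%. The counts at 2 h also moved with single replicates: 5 were lower without replicate 1, 4 lower and 0 higher without replicate 2, and 13 lower without replicate 3. IMP3 was left at 80.9%, 57.5% and 19.1% at 1, 2 and 4 h, and MPHOSPH10 at 89.6%, 62.7% and 20.2%. A constant rate of loss gives a straight line on the log scale, and whether the rate changed was tested as the log2 change per hour from 2 to 4 h minus that from 0 to 2 h. The rate is called lower where this difference was below 0, which for an mRNA that fell means a faster fall after 2 h. It was lower for 0 of the 50 genes (0.341% of all tested genes) and higher for 0 (2.12%). At an unadjusted p below 0.05 (edgeR) it was lower for 8 and higher for 0, and DESeq2 called 2 lower and 0 higher. Here too, the shares over all tested genes were not counted. With the replicate block it was lower for 13 and higher for 0, where 3.54% and 4.86% of all tested genes were, led by MPHOSPH10 at -0.48 (adjusted p = 0.000109), IMP3 at -0.40 (adjusted p = 0.000104) and WDR43 at -0.34 (adjusted p = 1.79e-06, all edgeR). Half-lives from a single slope are thus approximate for these genes: 1.70 h for IMP3, 1.71 h for WDR43, 1.73 h for MPHOSPH10, 1.94 h for RRS1 and 2.83 h for NOP16.

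These values depend on the scaling. GAPDH and ACTB, often taken as stable, had TMM slopes of 0.15 and 0.12, and scaling each library to their counts moved the median slope of all tested genes down by 0.138, to -0.128 log2 per hour. The 50 genes moved with it, to a median of -0.163, so that 46 fell and 0 rose, where 64.2% of all tested genes fell and 0.931% rose. Relative to the median of all tested genes, 35 of the 50 lay below it under either scaling. That count could hardly change, since the scaling moves all genes and their median nearly alike. The half-life of IMP3 became 1.37 h, of WDR43 1.38 h, of MPHOSPH10 1.39 h, of RRS1 1.52 h and of NOP16 2.02 h. Of the 8 that rose, FBL, TCOF1, NOP10 and NOLC1 then fell, and NHP2, NOC2L, BOP1 and EBNA1BP2 had slopes from -0.049 to -0.006 with neither call.

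**Figure D3:**
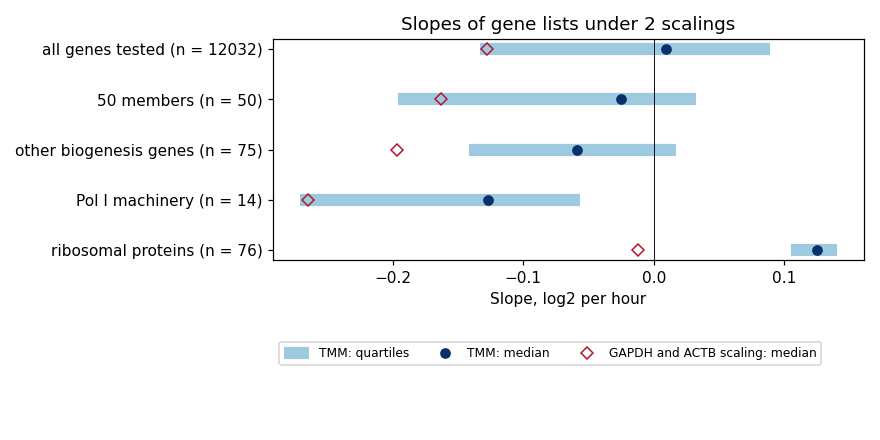
Median slope (x axis, log2 per hour) of the 50 genes, of 3 other gene lists of the pathway and of all tested genes. Filled circles are medians and bars the quartiles over genes with TMM scaling, and open diamonds are medians with scaling to GAPDH and ACTB, which lie lower by a like amount in each list, with the order of the lists kept and ribosomal proteins highest.

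Other genes of the pathway were taken from 3 lists. Of all tested genes 32.1% fell and 30.7% rose. Of 75 further biogenesis factors, 38 fell (50.7%) and 13 rose (17.3%), with a median of -0.059. The lowest were NGDN (-0.65), NKRF (-0.48) and RRP8 (-0.43), and the highest WDR18 (0.14), WBSCR22 (0.13) and LAS1L (0.12), all 6 past the threshold (edgeR). Of 14 genes of the RNA polymerase I machinery, 11 fell and 1 rose (median -0.13), led by POLR1B, its second largest subunit (-0.37), POLR1C (-0.31) and the termination factor TTF1 (-0.30). TAF1C rose (0.11). Of 78 ribosomal protein genes, which encode the components that these factors assemble, 76 were tested, and 74 rose and 0 fell (median 0.12, highest RPS15 at 0.20). With the replicate block 45 of the 75 factors fell and 15 rose, 11 of the 14 polymerase I genes fell and 2 rose, and 0 of the 76 ribosomal protein genes fell and 75 rose. Of all tested genes 34.8% fell and 36.2% rose with the block. With scaling to GAPDH and ACTB, 67 of the 75 factors, 12 of the 14 polymerase I genes and 4 of the 76 ribosomal protein genes fell, and 0, 0 and 1 rose. Under that scaling 64.2% of all tested genes fell and 0.931% rose.

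Per kilobase of canonical transcript, the 0 h levels of the 50 genes spanned from 1.23 CPM per kb for PPAN to 1220 for NPM1, followed by NCL at 531, FBL at 230, NOP56 at 181, EBNA1BP2 at 176 and NOP10 at 175. IMP3 (54.3), WDR43 (56.1), MPHOSPH10 (39.4) and RRS1 (27.2) lay in the middle. Across the 50 genes level and slope had a Spearman correlation of 0.18, and 0.17 over 11103 tested genes with an annotated length. This is a description across genes that share libraries, and genes are not independent replicates.

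**Figure D4:**
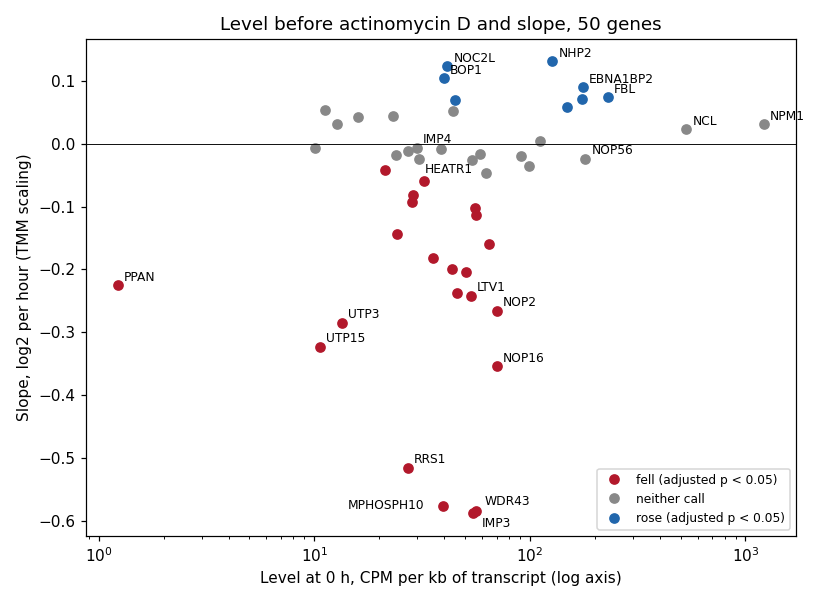
Level at 0 h (x axis, CPM per kb of transcript, log scale) against slope (y axis, log2 per hour, TMM scaling), 1 point per gene, colored by call. The 6 genes above 150 CPM per kb lie between -0.024 and 0.090, and the 4 steepest losses lie between 27.2 and 56.1 CPM per kb.

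The 50 genes were compact and rich in exons. Their canonical transcripts had a median of 2420 bases, 15 exons and a 3′ UTR of 496 bases, against 3480 bases, 9 exons and 1370 bases for all annotated tested genes. The median exon density was 5.30 per kb against 3.03, and GC content was 48.4% against 48.0%. Over all tested genes the Spearman correlation with slope was 0.45 for exons per kb, -0.30 for the number of ATTTA sites and -0.26 for 3′ UTR length. Within the 50 these were 0.24, -0.12 and -0.075, all across genes and as a description. The 3 genes with a single-exon transcript, IMP3, RRS1 and UTP3, all fell, as did 127 of 168 tested single-exon protein-coding genes (75.6%) and 32.0% of those with more exons.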

How the data were processed

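RNA of shA673-1c cells at 0, 1, 2 and 4 h of 5 µM ActD was sequenced by the authors from poly(A)-selected, stranded libraries (3 replicates per time, 12 libraries). The table the authors deposited holds raw counts for 26334 gene symbols. The submitters' processing notes name FastQC, STAR and hg19. For other RNA-Seq in the study the methods describe Prinseq, rRNA removal with STAR, Salmon and tximport. The counting step and its use of strand are not given in the sources used here, so reads shared by paralogs, pseudogenes or overlapping genes may be split in unknown ways. Coordinates and transcript features came from GENCODE version 44 (GRCh38) by symbol (92.3% of tested genes), and promoters from RefSeq (GRCh38.p14).

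Samples were grouped by the labels, and 0 columns were unmatched. The 12032 genes averaging 10 or more counts per library were kept. Counts were scaled with TMM and fitted by glmQLFit and glmQLFTest of edgeR 4.0.16 in R 4.3.3, with time as a number (slope) or as 4 groups, with a threshold of 0.05 on Benjamini-Hochberg adjusted p. The common biological coefficient of variation was 0.0905. Total counts of 9147018 to 11194705 limit precision for genes such as PPAN with 9 to 33 counts per library. The fits were tested on simulated data with 200 changed genes. No library was a repeat of another: chi-square per degree of freedom was 3.23 to 8.73 over 12 replicate pairs. P-values set each change against the spread that the fit leaves among these replicates. Without the block, this spread includes differences between replicate numbers.

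Same-numbered replicates deviated together from their time means (correlations from 0.425 to 0.741 in 18 pairs, against a mean of -0.276 in 36 pairs of different number). The numbers were therefore taken to pair the samples, from the data and not from a statement in the labels, and values with the replicate block are given beside the main ones for the counts and for the genes described in detail whose call they change.

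The genes and lists were chosen with earlier results of these data known. Values in every sample are given for the lowest and highest slope of each role group, the 5 lowest and 5 highest slopes past the threshold, the paralog pairs RRP1 and RRP1B and GNL3 and GNL3L, and NPM1, NCL and FBL. Slopes of single replicates used least squares on log2(CPM + 0.5), and differences within pairs used least squares on the log2 ratio. Alternatives were library totals, DESeq2 1.42.0 size factors and its Wald test, scaling to GAPDH and ACTB, other count filters, the replicate block, leaving out each replicate, and 0 to 2 h only.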

Additional observations from a re-analysis of the deposited data

How the results depend on the processing

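DESeq2's size factors, DESeq2's test and other filters left the counts of genes that fell (22) or rose (8) over 0 to 4 h within 1.5 times. Below, a lower late rate means a more negative log2 change per hour from 2 to 4 h than from 0 to 2 h. Scaling to GAPDH and ACTB gave 46 falling and 0 rising, 1 lower at 1 h, 30 lower and 0 higher at 2 h, 46 lower and 0 higher at 4 h, 3 with a lower late rate, and a median slope of -0.163. Library totals gave 5 rising, 16 lower at 2 h, 4 higher at 4 h, 2 with a lower late rate and a median of -0.064. The replicate block gave 14 rising, 7 lower and 2 higher at 1 h, 17 lower and 10 higher at 2 h, 13 higher at 4 h and 13 with a lower late rate. With 0, 1 and 2 h only, 8 fell and 4 rose, with a median of -0.008. No filter beyond 1 count, and DESeq2's test, each gave 2 with a lower late rate. Leaving out 1 replicate gave 19 to 23 falling, 8 to 10 rising, 4 to 13 lower and 0 to 4 higher at 2 h (13 without replicate 3, 4 and 0 without replicate 2, 5 without replicate 1), 19 to 23 lower and 6 to 11 higher at 4 h, 0 to 1 with a lower late rate and a median of -0.033 to -0.026. At 1 h it gave 0 to 0 in either direction. Slopes changed sign with GAPDH and ACTB for FBL (-0.064), NHP2 (-0.006), TCOF1 (-0.069), RRP9 (-0.095), WDR12 (-0.105), BOP1 (-0.034), NOC2L (-0.015), EBNA1BP2 (-0.049), GNL3L (-0.086), NPM1 (-0.106), NCL (-0.115), NOP10 (-0.067), NOLC1 (-0.079), PES1 (-0.087), NOC4L (-0.096) and NOP58 (-0.135). Among the genes given in every library they also changed sign with library totals for WDR12 (-0.007), NPM1 (-0.008) and NCL (-0.017), and without 4 h for RRP12 (0.055). Each scaling shifts all genes nearly alike by its construction, and 0 to 2 h leaves fewer samples. Other causes were not tested.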
